A study of Homo sapiens with 8 samples.

Results

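Cells frozen in dimethyl sulfoxide (DMSO) were compared with fresh cells by RNA sequencing of mesenchymal stromal cells made from H9, a long-established line of human embryonic stem cells. The comparison set every library of cells frozen in DMSO, 2 in number, against every library of cells that were not frozen, 3 in number, so that 5 of the 8 libraries of the series entered it. The fresh libraries came from cells taken at 0 h, cells held for 1 h with DMSO and cells held for 1 h in medium. The frozen ones came from cells held for 0 h or 1 h in DMSO before freezing, cooled at 1 °C per minute and thawed in a warm bath. Every library came from the same line, used at passages 8 to 12. The other 3 libraries were of cells frozen in osmolyte solutions labelled SMC, SGC and SGI. They entered the filter on low counts, the scaling and the estimate of the spread. A few of their levels are set beside the others near the end. There was 1 library for each condition, and no label tells whether separate cultures were used. The p-values therefore rest on the spread among libraries whose conditions differ, and that spread may be technical. Exposure to DMSO and freezing overlapped in this design, as 1 of the 3 fresh libraries had DMSO. Bulk RNA does not tell fewer cells of a type from less RNA per cell.

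DMSO enters cells and limits the growth of ice and the shrinkage of cells as the water around them freezes, which is why it is the conventional agent for banking stromal cells. Freezing and thawing still expose a cell to cold, osmotic swings, membrane damage and the loss of attachment. Mesenchymal stromal cells are adherent, secrete collagens and other matrix proteins, respond to ligands of the TGF-beta and WNT families, and can be turned towards bone, cartilage or fat.

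Counts per library summed to between 41198716 and 51166666 over the 5 libraries. Levels are given in CPM, which sets all libraries to one common size. In every set of single values below, fresh cells stand in the order 0 h, 1 h with DMSO, 1 h in medium, and frozen cells in the order 0 h, 1 h. Markers by which mesenchymal stromal cells are known were present on both sides, and none of the 25 on the list averaged under 1 CPM. THY1 stood at 227, 247 and 259 CPM in fresh and 239.5 and 241 CPM in frozen cells, and NT5E at 249.8, 248 and 218 CPM and 257 and 257 CPM. Of the markers that such cells should lack, PTPRC, the pan-leukocyte antigen, was at 0.0895, 0 and 0.0485 CPM in fresh and 0.0789 and 0.131 CPM in frozen cells. HLA-DRA had 0 counts in all 5 libraries, where a count of 0 allows up to 0.0727 CPM in the shallowest if single counts are the unit. As every deposited count is even, the limit would be higher with a pair of counts as the unit. SOX2, a factor of pluripotent cells, did not exceed 0.0895 CPM.

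Among 15564 genes with enough counts to be tested, 195 (1.25%) were higher and 96 (0.617%) were lower in frozen cells, at an adjusted p under 0.05 by edgeR. Most differences were small. The median gene that rose did so 1.49-fold and the median gene that fell 1.51-fold, and 30 and 12 genes changed at least 2-fold. In all 291 genes both frozen libraries lay on one side of the 3 fresh ones, whereas over all genes tested both lay above in 16.0% and below in 15.4%. The median log2 fold change of all genes was -0.0074. The genes that rose were displaced in each pair of single libraries. Their median log2 ratio was 0.50 between the 0 h libraries, 0.58 between the 1 h libraries with DMSO, and 0.69 between frozen 1 h and fresh 1 h in medium. The corresponding medians of the genes that fell were -0.54, -0.54 and -0.61. Because these genes were chosen on the same libraries, the ratios describe them and test nothing. With both frozen libraries on one side, fits on part of these libraries could hardly reverse the direction of a call either.

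**Figure D1:**
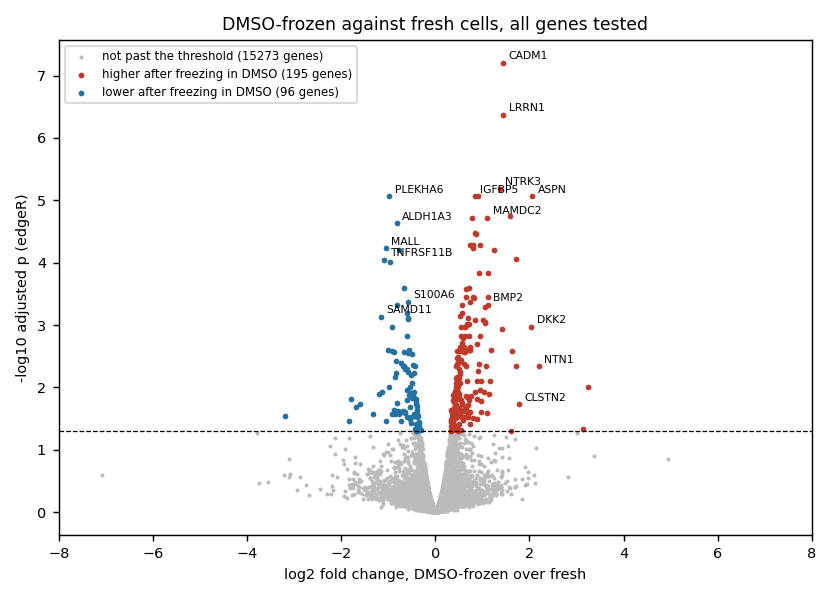
Volcano plot of all 15564 genes tested. The x axis is the log2 fold change of DMSO-frozen over fresh cells and the y axis is -log10 of the edgeR adjusted p, with a dashed line at 0.05. Red points are the 195 genes that were higher and blue points the 96 that were lower, and CADM1 and LRRN1 have the smallest adjusted p.

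The number of calls rested on both frozen libraries. Without the one frozen at 0 h, 79 genes were higher and 20 lower, and without the one frozen at 1 h, 56 and 35, with the single library that remained taken to vary as the other groups did. Against the fresh library with DMSO alone, 59 genes were higher and 20 lower, of which 57 and 20 were also calls against all 3 fresh libraries. Of 118 genes named by rule, 39 passed with each of the 5 libraries left out in turn, and no call changed direction in any of these fits.

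Of the genes called, 66 of the 195 that rose and 30 of the 96 that fell were on one of 43 lists of pathways, stress responses and markers. The share of all genes tested that were on a list is not given, so these counts have nothing to be set against. The lists were written with earlier results of these data known, so counts by list describe the calls and test nothing. Lists of secreted signals, adhesion and matrix held the most rises. The pathway of TGF-beta, activin and BMP had 11 of 47 members higher, matrix glycoproteins and proteoglycans 8 of 47, guidance and neural adhesion genes 9 of 61, and the WNT pathway 5 of 44. The falls were led by keratins and epithelial genes, with 7 of 30. Over all genes tested, 1.25% were higher and 0.617% lower.

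**Figure D2:**
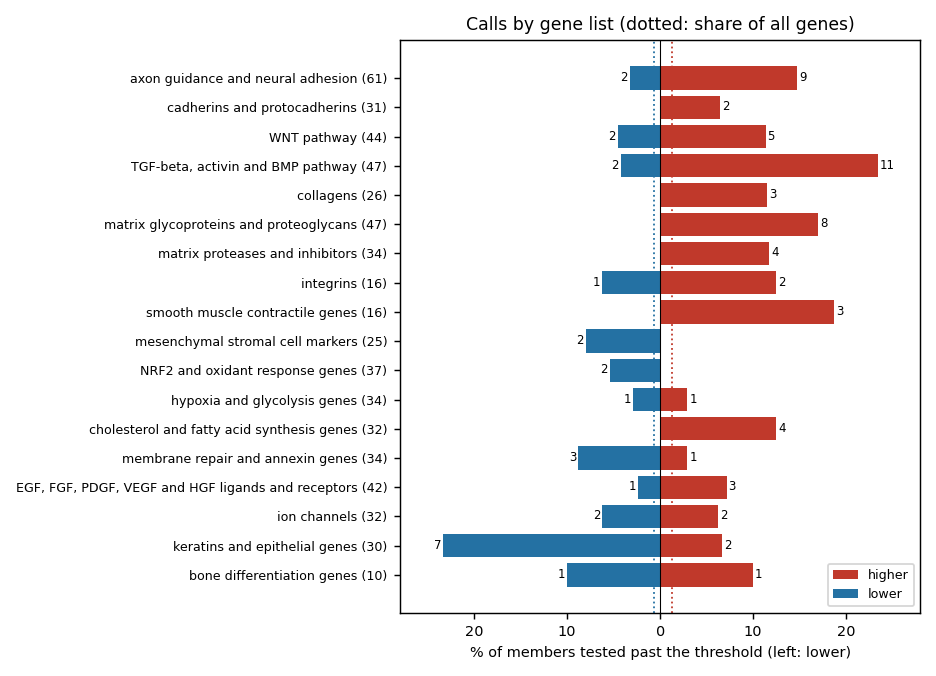
Share of each list's tested members that passed the threshold, for the lists with at least 2 calls. Bars to the right are members higher in DMSO-frozen cells and bars to the left members that were lower, with the number of genes at the bar end and the number tested in brackets. Dotted lines mark the shares over all genes, 1.25% higher and 0.617% lower.

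The BMP ligands BMP2, BMP4 and GDF6 were higher after freezing, while BMP6 and GDF5 did not pass. BMP ligands are secreted dimers that bind paired receptor kinases, whose SMAD proteins then carry the signal to the nucleus. BMP2, a ligand that drives bone and cartilage formation, was at 5.10, 3.37 and 4.32 CPM in fresh cells and 8.72 and 9.75 CPM in frozen cells. The lowest frozen value lay well above the highest fresh value, and the rise was 2.16-fold (adjusted p = 0.000475 by edgeR, log2 fold change 1.11, SE 0.16). BMP4, a ligand also used to pattern mesoderm, was at 1.79, 2.00 and 1.70 CPM and then 3.83 and 3.85 CPM. It rose 2.09-fold (edgeR adjusted p = 0.000903), with the frozen libraries nearly level. GDF6, a ligand of joints and tendons, was much more abundant, at 110.2, 107 and 104 CPM in fresh and 179 and 188 CPM in frozen cells. Its fresh values were close together and the rise was 1.72-fold (edgeR adjusted p = 1.90e-05). GDF5, its close relative, had means of 87.5 CPM in fresh and 81.1 CPM in frozen cells, and BMP6 0.596 CPM and 1.13 CPM (edgeR adjusted p = 0.594 and 0.151). BMP2 lies on chromosome 20 from 6748745 to 6760910 in hg19.

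NOG, FST and GAS1, which encode proteins that bind secreted ligands, also rose. NOG, noggin, which binds BMPs and keeps them from their receptors, was at 0.984, 1.00 and 1.36 CPM in fresh and 2.48 and 3.45 CPM in frozen cells. It rose 2.66-fold (edgeR adjusted p = 0.00116), with the 1 h frozen library the higher. FST, follistatin, which binds activins, rose 1.36-fold, and its values were 22.4, 20.3 and 19.3 CPM in fresh and 28.2 and 28.1 CPM in frozen cells. GAS1, a membrane protein best known as a Hedgehog co-receptor, was at 3.18, 1.77 and 2.52 CPM and 4.89 and 6.51 CPM and rose 2.28-fold. The edgeR adjusted p was 0.00973 for FST and 0.00255 for GAS1. The BMP antagonists GREM1, gremlin 1, and CHRD, chordin, did not pass. GREM1 was abundant, with means of 858 CPM in fresh and 1000.3 CPM in frozen cells, and CHRD was nearly absent, at 0.109 CPM and 0.151 CPM (edgeR adjusted p = 0.36 and 0.86).

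On the TGF-beta and activin side, TGFB3, a TGF-beta ligand, rose 1.66-fold, from 14.6, 11.01 and 14.0 CPM to 20.6 and 23.2 CPM. INHBB, which encodes the activin beta B subunit, rose 1.84-fold, from 1.39, 0.819 and 0.970 CPM to 1.89 and 2.01 CPM, and TGFBR1, the type I receptor kinase for TGF-beta, rose 1.43-fold, from 70.4, 78.5 and 64.1 CPM to 102 and 100.5 CPM. LTBP2, a microfibril protein of the latent TGF-beta binding family, was at 286, 263 and 237 CPM in fresh and 327 and 381 CPM in frozen cells, a rise of 1.35-fold. The members that fell act inside the cell, below the receptor. SMAD3, which carries the TGF-beta signal, fell 1.27-fold, from 415, 428 and 419 CPM to 341 and 322 CPM, and SMAD7, which inhibits it, fell 1.36-fold, from 46.5, 43.3 and 55.9 CPM to 34.2 and 36.9 CPM. By edgeR the adjusted p was 0.00251 for TGFB3, 0.0325 for INHBB, 0.005 for TGFBR1, 0.0191 for LTBP2, 0.0428 for SMAD3 and 0.0264 for SMAD7. The targets ID1 and ID2, taken from the list after their values were seen, did not pass. ID1 was at 67.4, 67.3 and 109 CPM in fresh and 31.4 and 40.5 CPM in frozen cells, with an unadjusted p of 0.00648 and an edgeR adjusted p of 0.153, and ID2 was at 14.9, 17.5 and 27.5 CPM and 8.76 and 10.8 CPM.

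In all, 11 of 47 members of this pathway were higher and 2 lower, and the median log2 fold change of the 47 was 0.20. Both frozen libraries lay above all fresh ones for 22 members and below them for 9, where the shares over all genes tested were 16.0% and 15.4%. BMP2, BMP4 and GDF6 held with each of the 5 libraries left out in turn. Of the 13 calls, 8 held without frozen 0 h, 3 without frozen 1 h, 12 without fresh 0 h, 11 without fresh 1 h DMSO and 9 without fresh 1 h medium. Against the fresh library with DMSO alone, TGFB3, BMP2, NOG, GAS1 and GDF6 remained past the threshold.

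**Figure D3:**
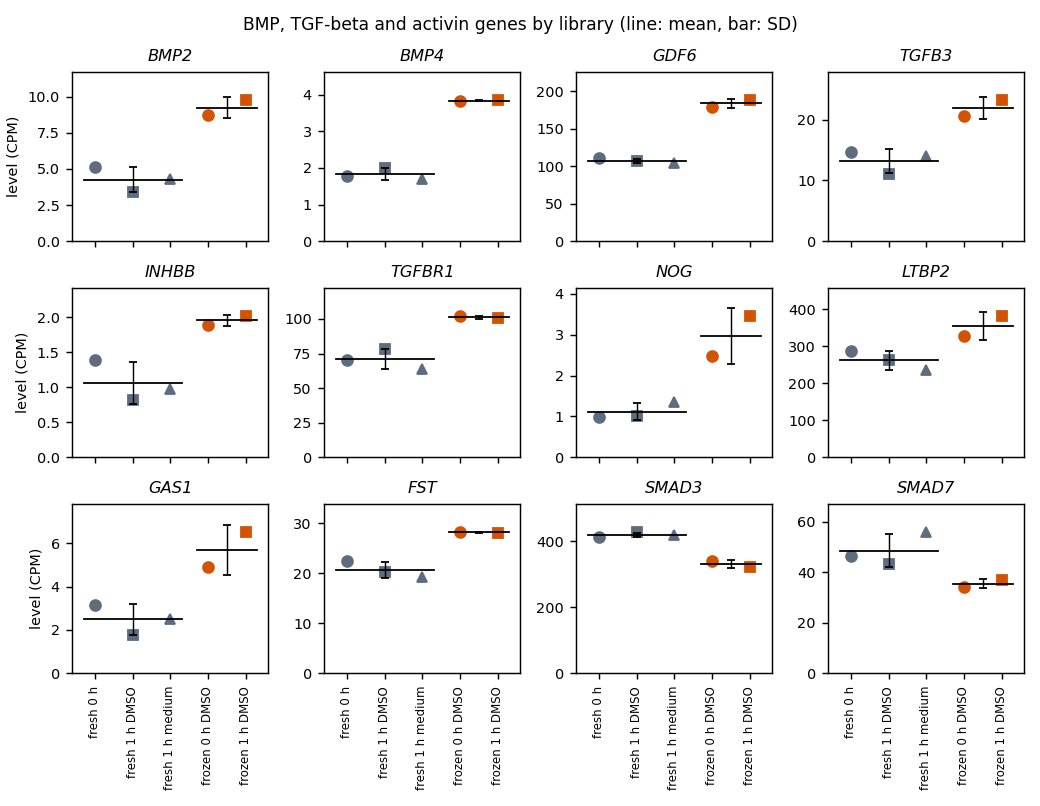
Levels in CPM of 12 genes of the TGF-beta, activin and BMP pathway in each of the 5 libraries, with grey points for fresh and orange points for DMSO-frozen cells. Horizontal lines are group means and bars the SD (n = 3 and n = 2). Frozen points lie above all fresh points in 10 panels and below them in those of SMAD3 and SMAD7.

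GDF7, a further BMP ligand that was not on the list and was noticed after its values were seen, had the largest fitted fold change among the genes that rose. It had counts of 2, 0 and 4 in fresh and 16 and 28 in frozen cells. At so few counts the ratio of the summed counts, 9.88, has a 95% exact interval from 2.97 to 51.5, which covers counting error only and takes each pair of counts as 1 unit, as every deposited count is even. GDF7 had an edgeR adjusted p of 0.00973. It passed the filter on low counts only through frozen libraries, the side where it is high. Its p is therefore no support for a rise. The call was lost for GDF7 without frozen 1 h.

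Of 44 genes of WNT signalling, 5 rose, which encode ligands, a receptor and secreted antagonists. WNT proteins bind Frizzled receptors and either stabilise beta-catenin or act on cell polarity and movement. DKK2, an antagonist of the WNT co-receptors, was at 5.91, 3.82 and 3.54 CPM in fresh and 16.4 and 20.2 CPM in frozen cells. All frozen values were at least 10 CPM above all fresh ones, and the fold was 4.12 (log2 fold change 2.04, SE 0.21, edgeR adjusted p = 0.00106). SFRP1, which binds WNT ligands, was abundant, at 273, 285 and 254 CPM and 396 and 409 CPM, and rose 1.49-fold (edgeR adjusted p = 0.000485). WNT5A, a ligand of the beta-catenin independent branch, rose 1.31-fold, from 118 ± 8.48 CPM (SD, n = 3) to 155 ± 0.306 CPM (SD, n = 2). WNT11, of the same branch, rose 3.26-fold but was scarce, at 0.537, 0.273 and 0.388 CPM in fresh and 1.18 and 1.44 CPM in frozen cells. FZD1, a Frizzled receptor, was at 52.3, 39.6 and 40.0 CPM and 61.4 and 80.7 CPM and rose 1.62-fold. Adjusted p by edgeR came to 0.0137 for WNT5A, 0.00458 for WNT11 and 0.0263 for FZD1.

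Of the WNT list, TCF7 and TNFRSF11B were lower. TCF7, a transcription factor that partners beta-catenin, was at 10.9, 11.3 and 11.5 CPM in fresh and 7.06 and 6.82 CPM in frozen cells, a fall of 1.62-fold (edgeR adjusted p = 0.00458). The level of TNFRSF11B, osteoprotegerin, a secreted decoy receptor that also counts among bone genes, was 35.7, 32.7 and 25.7 CPM in fresh and 14.4 and 15.3 CPM in frozen cells (edgeR adjusted p = 8.98e-05). Its fresh values were spread more widely than its frozen ones, and the lowest fresh value was well above the higher frozen one. The median log2 fold change of the 44 members tested was 0.18, with 20 above and 3 below all fresh libraries. Of all genes tested, 16.0% lay above and 15.4% below. With each of the 5 libraries left out in turn, DKK2, SFRP1 and TNFRSF11B held. Leaving out frozen 0 h kept 5 of the 7 calls and frozen 1 h 3, against 7, 6 and 6 for the fresh libraries in their order.

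Genes of axon guidance and neural adhesion included the calls with the smallest p of the whole comparison. These proteins steer growing axons and hold neural cells together, and many also act in the adhesion and movement of other cells. CADM1, an immunoglobulin-type adhesion molecule, was at 33.3, 34.8 and 29.3 CPM in fresh and 84.1 and 91.1 CPM in frozen cells. The spread within each side was small against the distance between them, and the log2 fold change was 1.43 (SE 0.09, edgeR adjusted p = 6.25e-08). LRRN1, a leucine-rich repeat membrane protein, was at 5.50, 5.87 and 4.95 CPM and 14.4 and 15.4 CPM (log2 fold change 1.45, SE 0.11, edgeR adjusted p = 4.26e-07). NTRK3, the receptor for neurotrophin 3, was at 4.52, 6.28 and 5.24 CPM and 13.4 and 14.2 CPM (log2 fold change 1.37, SE 0.12, edgeR adjusted p = 6.57e-06). In hg19, CADM1 lies on chromosome 11 from 115044345 to 115375241, LRRN1 on chromosome 3 from 3841121 to 3889387 and NTRK3 on chromosome 15 from 88419988 to 88799962.

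NTN1, netrin 1, a secreted guidance cue, was at 1.83, 0.773 and 1.12 CPM in fresh and 4.85 and 6.64 CPM in frozen cells. The 1 h frozen library was the highest, and the edgeR adjusted p was 0.00458. Its relative NTN4, found in basement membranes, was far more abundant, at 131, 119 and 107 CPM and 181 and 179 CPM, and rose 1.51-fold (edgeR adjusted p = 0.00263). CLSTN2, a calsyntenin of synapses, was at 35.0, 26.2 and 23.8 CPM in fresh and 91.1 and 104 CPM in frozen cells, with an edgeR adjusted p of 0.0188. Rises were also seen for CNTN3, a contactin, at 2.19-fold, EFNB2, a membrane-bound ligand of Eph receptors, at 1.33-fold, and BDNF, a neurotrophin, at 1.26-fold. By edgeR the adjusted p was 0.0125 for CNTN3, 0.0171 for EFNB2 and 0.0365 for BDNF. A related ligand and a netrin receptor were lower. EFNB1 fell 1.41-fold, from 80.0, 81.4 and 98.5 CPM to 57.3 and 65.6 CPM, and UNC5B fell 1.56-fold, from 8.41, 7.10 and 7.62 CPM to 4.57 and 5.29 CPM, with edgeR adjusted p of 0.00856 and 0.0249.

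Altogether 9 of the 61 guidance and neural adhesion genes tested were higher and 2 lower, with a median log2 fold change of 0.17. LRRN1, CADM1 and NTRK3 held whichever of the 5 libraries was left out. Out of 11 calls, 4 held without frozen 0 h, 4 without frozen 1 h and 9 without any one of the fresh libraries. CLSTN2 held without fresh 0 h only, and NTN1 did not hold without fresh 1 h medium or frozen 1 h. Of 31 cadherins and protocadherins, which join cells through calcium-dependent contacts, FAT3 and DCHS1 rose, both giant atypical cadherins. FAT3 was at 8.32, 8.51 and 5.82 CPM and 15.9 and 16.9 CPM, a 2.17-fold rise, and DCHS1 was at 36.1, 27.2 and 30.4 CPM and 45.6 and 58.9 CPM, a 1.67-fold rise, with edgeR adjusted p of 0.000352 and 0.00251. DCHS1 did not pass without the 1 h frozen library. CDH2, N-cadherin, the classical cadherin of these cells, had means of 235 CPM in fresh and 265 CPM in frozen cells and did not pass (edgeR adjusted p = 0.391).

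Matrix genes that rose included some of elastic fibres, and others of the same kind did not pass. Elastic fibres consist of cross-linked elastin on a scaffold of microfibrils, with fibulins that help assemble them. ELN, elastin itself, was at 1.03, 0.910 and 1.26 CPM in fresh and 3.12 and 3.93 CPM in frozen cells, a rise of 3.30-fold from a low level (edgeR adjusted p = 8.77e-05). FBLN5, fibulin 5, was at 37.0, 32.2 and 31.2 CPM and 57.3 and 65.0 CPM and rose 1.83-fold (edgeR adjusted p = 3.45e-05). MFAP2, a microfibril protein, rose 1.31-fold and EFEMP1, another fibulin, 1.30-fold, with edgeR adjusted p of 0.0263 and 0.0341. Of those that did not pass, FBN1, fibrillin 1, the main microfibril protein, had means of 4346 CPM in fresh and 5215 CPM in frozen cells, and FBLN2, fibulin 2, 171 CPM and 140.4 CPM (edgeR adjusted p = 0.195 and 0.259). FBN2, FBLN1, EMILIN1, MFAP4, MFAP5 and EFEMP2 did not pass either. ASPN, asporin, a small proteoglycan that binds collagen and TGF-beta, was at 1.03, 1.18 and 0.825 CPM in fresh and 3.63 and 4.85 CPM in frozen cells. This was the largest fold among the 47 matrix glycoproteins and proteoglycans tested, 4.16-fold (log2 fold change 2.06, SE 0.19, edgeR adjusted p = 8.66e-06).

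Among abundant matrix glycoproteins, THBS2, thrombospondin 2, was at 1027, 945 and 849.9 CPM in fresh and 1253 and 1399.9 CPM in frozen cells. TNC, tenascin C, an adhesion-modulating glycoprotein, was at 610.4, 685 and 641 CPM and 804 and 828 CPM, and MATN2, a matrilin, at 38.7, 46.0 and 43.2 CPM and 54.1 and 56.5 CPM. All frozen values lay above all fresh ones, for rises of 1.41-fold, 1.26-fold and 1.30-fold, and the edgeR adjusted p was 0.0137, 0.0332 and 0.0371. Counted together, 8 of 47 matrix glycoproteins and proteoglycans rose and 0 fell, the median log2 fold change was 0.14, and at an unadjusted p under 0.05 the counts were 19 and 2, and by DESeq2 9 and 1. The share of all genes at an unadjusted p under 0.05 is not given, so such counts, here and below, only describe a list. Whichever of the 5 libraries was left out, ELN, FBLN5 and ASPN held. Of all 8, 4 held without frozen 0 h and 3 without frozen 1 h, and 6, 6 and 5 without the fresh libraries in their order.

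Collagens that passed were of minor types. COL8A1 and COL8A2, the chains of the network-forming collagen VIII, were at 281, 304 and 239 CPM and 17.2, 14.5 and 14.9 CPM in fresh cells and at 413 and 429 CPM and 23.9 and 26.7 CPM in frozen cells. In the edgeR test the adjusted p was 0.00222 and 0.000762, for rises of 1.53-fold and 1.63-fold. COL14A1, a fibril-associated collagen, was at 3.98, 2.68 and 2.04 CPM and 6.07 and 6.99 CPM (edgeR adjusted p = 0.00802). None of the 26 collagens fell, 1 was lower at an unadjusted p under 0.05, and DESeq2 called 8 higher and 0 lower. Fibrillar collagens made by these cells in bulk did not pass: COL5A2, the nearest by p among them, had means of 3680.5 CPM in fresh and 4742 CPM in frozen cells (edgeR adjusted p = 0.119). The median log2 fold change of the 26 was 0.25. COL8A2 alone held with each of the 5 libraries left out in turn. COL8A1 did not hold without the 1 h frozen library, nor COL14A1 with either frozen one left out.

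Among enzymes that cut matrix and their inhibitors, MMP2, MMP11, ADAMTS14 and TIMP2 rose. MMP2, a gelatinase, was at 1966, 1762 and 1767 CPM in fresh and 2443 and 2815 CPM in frozen cells, and TIMP2, which inhibits it and also helps activate it, was at 653, 629.9 and 608 CPM and 798 and 848 CPM. The 1 h frozen library was the highest for both. MMP11, stromelysin 3, rose 1.42-fold and ADAMTS14, a procollagen peptidase, 1.39-fold. Values of the edgeR adjusted p were 0.00229 for MMP2, 0.0161 for TIMP2, 0.0214 for MMP11 and 0.00973 for ADAMTS14. These were 4 of 34 members tested, with 0 lower by edgeR or DESeq2 and 3 lower at an unadjusted p under 0.05, and the median log2 fold change was 0.15. None of the 4 held without the 1 h frozen library, 3 held without the 0 h one, and MMP11 and TIMP2 did not hold without fresh 1 h DMSO. FAP, fibroblast activation protein, and SULF2, which trims sulphates from heparan sulphate, were noticed after their values were seen. FAP was at 167, 162 and 143 CPM and 230.0 and 219 CPM, and SULF2 at 52.1, 44.6 and 42.3 CPM and 69.6 and 82.9 CPM (edgeR adjusted p = 0.00379 and 0.00149). The call was lost for FAP without frozen 0 h, and for SULF2 without frozen 1 h.

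Integrins, the receptors that tie cells to the matrix, gave 3 calls of 16. ITGA11, the alpha subunit of a collagen receptor of fibroblasts, was at 733, 588 and 593 CPM in fresh and 831 and 951 CPM in frozen cells, and ITGB5, a beta subunit of vitronectin receptors, at 80.8, 73.9 and 77.8 CPM and 94.4 and 105 CPM. ITGA3, the alpha subunit of a laminin receptor, was lower, at 319, 365 and 394 CPM and 259 and 284 CPM. The edgeR adjusted p was 0.0212 for ITGA11, 0.0341 for ITGB5 and 0.0288 for ITGA3. None of the 3 held with either frozen library, fresh 1 h DMSO or fresh 1 h medium left out, and all 3 held without fresh 0 h.

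**Figure D4:**
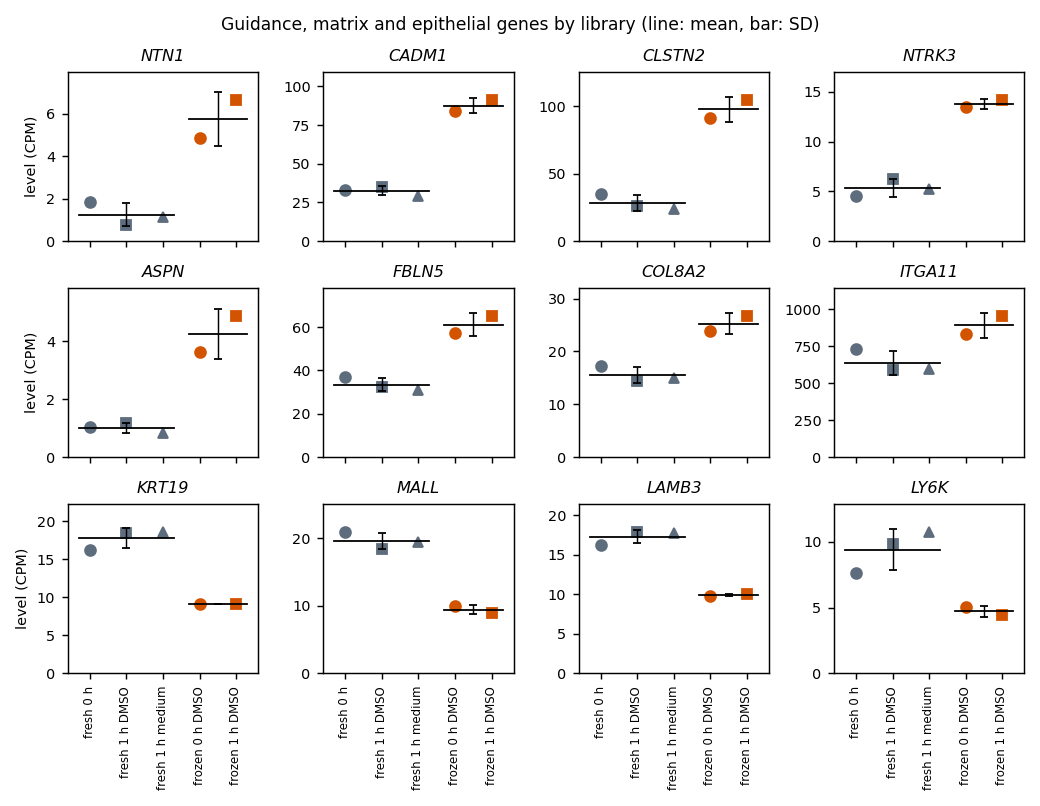
Levels in CPM of 12 guidance, matrix, integrin and epithelial genes in each of the 5 libraries, with grey points for fresh and orange points for DMSO-frozen cells. Horizontal lines are means and bars the SD (n = 3 and n = 2). Frozen points lie above all fresh points in the 8 panels from NTN1 to ITGA11 and below them in those of KRT19, MALL, LAMB3 and LY6K.

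Contractile genes of smooth muscle, which stromal cells also use, gave 3 calls of 16, and 3 were higher. ACTG2, enteric smooth muscle actin, was at 64.7, 75.6 and 81.2 CPM in fresh and 118 and 119 CPM in frozen cells, a 1.60-fold rise (edgeR adjusted p = 0.000958). ACTA2, vascular smooth muscle actin, was at 43.2, 43.9 and 42.5 CPM and 59.2 and 59.8 CPM, and CNN1, calponin, at 36.3, 39.1 and 37.6 CPM and 48.5 and 53.2 CPM. Their edgeR adjusted p was 0.00416 and 0.00701. Reads of the near-identical actins may be split between ACTA2 and ACTG2, and how such reads were counted is not given in the sources used here. Abundant members did not pass: TPM1, a tropomyosin, had means of 1622 CPM and 1779 CPM and TAGLN, transgelin, 1098 CPM and 1254 CPM (edgeR adjusted p = 0.495 and 0.348). The median log2 fold change of the 16 was 0.13. By edgeR 0 members were lower, with 1 at an unadjusted p under 0.05 and 0 by DESeq2. ACTG2 held with each of the 5 libraries left out in turn, CNN1 did not hold without the 1 h frozen library, and ACTA2 did not hold with either frozen library left out. MYH10, a non-muscle myosin heavy chain and one of the most counted genes that rose, was at 2588, 2266 and 2227 CPM and 3618 and 3839 CPM (edgeR adjusted p = 0.000352).

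Many genes of this kind carry CArG boxes, the sites of serum response factor, so the sequences before the start sites of the 3 genes that rose are shown, as RefSeq gives them for GRCh38.p14, each 250 bases on the strand of the gene. Capitals mark a CArG box (both strands searched, strict form).
ACTG2: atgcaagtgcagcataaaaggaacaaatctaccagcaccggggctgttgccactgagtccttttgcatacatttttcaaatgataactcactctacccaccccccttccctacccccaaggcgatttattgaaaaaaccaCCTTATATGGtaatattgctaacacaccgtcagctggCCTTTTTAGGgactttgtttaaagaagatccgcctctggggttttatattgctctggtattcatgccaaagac
CNN1: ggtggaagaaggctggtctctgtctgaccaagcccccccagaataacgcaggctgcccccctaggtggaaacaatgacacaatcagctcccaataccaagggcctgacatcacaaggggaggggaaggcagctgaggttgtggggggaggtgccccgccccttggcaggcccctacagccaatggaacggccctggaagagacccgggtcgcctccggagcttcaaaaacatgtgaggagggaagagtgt
ACTA2, first window: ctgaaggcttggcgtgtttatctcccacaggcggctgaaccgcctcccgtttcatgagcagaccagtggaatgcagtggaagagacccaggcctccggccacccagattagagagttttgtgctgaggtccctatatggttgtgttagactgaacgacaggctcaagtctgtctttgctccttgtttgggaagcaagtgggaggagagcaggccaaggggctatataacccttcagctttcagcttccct
ACTA2, second window: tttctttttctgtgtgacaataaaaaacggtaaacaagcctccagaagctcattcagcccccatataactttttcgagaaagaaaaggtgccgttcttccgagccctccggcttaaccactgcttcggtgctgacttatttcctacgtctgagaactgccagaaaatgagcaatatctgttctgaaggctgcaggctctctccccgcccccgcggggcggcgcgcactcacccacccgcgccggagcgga
The ACTG2 window spans chr2:73892758-73893007 on the plus strand and holds boxes that begin 110 and 73 bases before the start. The CNN1 window, chr19:11538601-11538850 on the plus strand, and the ACTA2 windows, chr10:88952774-88953023 and chr10:88991338-88991587 on the minus strand, hold none in this strict form, which says only that these letters are not in these windows. A CArG box was found in 4 of 19 windows of the contractile genes. Besides that of ACTG2, these were windows of CNN2, MYLK and SMTN, which did not pass. The box was in 9 of 321 windows (2.80%) of the genes that rose, in 2 of 110 (1.82%) of those that fell and in 191 of 16926 (1.13%) of all genes tested. Windows could be matched for 155 of the 195 genes that rose and 69 of the 96 that fell, and a gene may have several. The TATAAA motif was in 9.03% of windows of genes that rose, 11.8% of those that fell and 6.43% of all. Promoters of genes that rose had a median GC content of 60.8%, against 63.6% for genes that fell and 64% for all.

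Keratins and epithelial genes were the list with most falls. Stromal cells are not epithelial, but cultured ones often carry simple keratins and basement membrane genes at some level. KRT19, a keratin of simple epithelia, was at 16.2, 18.5 and 18.5 CPM in fresh and 9.15 and 9.14 CPM in frozen cells, so the frozen libraries were at about the same level and the fresh ones all above them (log2 fold change -0.96, SE 0.12, edgeR adjusted p = 9.82e-05). MALL, a membrane protein of raft domains, was at 20.8, 18.4 and 19.5 CPM and 9.94 and 8.92 CPM (edgeR adjusted p = 5.87e-05). LAMB3, a chain of a laminin that anchors epithelia, was at 16.3, 17.8 and 17.7 CPM and 9.78 and 9.97 CPM (edgeR adjusted p = 0.000485). Lower levels were also seen for LY6K, a lipid-anchored surface protein, at 7.65, 9.82 and 10.7 CPM in fresh and 5.01 and 4.41 CPM in frozen cells, and for KRT15, a basal keratin, at 3.27, 3.50 and 2.96 CPM and 1.81 and 1.62 CPM (edgeR adjusted p = 0.0025 and 0.0265).

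KRT14, the basal keratin with the largest fitted fall, was barely counted, with 18, 18 and 16 counts in fresh and 2 and 2 in frozen cells. The ratio of its summed counts, fresh over frozen, was 9.65, with a 95% exact interval from 2.42 to 83.9 for counting error only (edgeR adjusted p = 0.0288). KRT14 passed the filter on low counts only through fresh libraries, the side where it is high, so its p is no support for a fall. Both other calls on this list rose. CLDN1, a tight junction protein, was at 2.15, 2.37 and 1.89 CPM and 4.57 and 4.28 CPM, and PKP2, a desmosome protein, at 30.2, 24.5 and 25.9 CPM and 38.1 and 39.3 CPM (edgeR adjusted p = 0.000936 and 0.00572). KRT8, an abundant keratin, had means of 871 CPM in fresh and 719 CPM in frozen cells and did not pass (edgeR adjusted p = 0.142). Thus 7 of 30 fell and 2 rose, and the median log2 fold change was -0.093. The calls of CLDN1, KRT19, MALL and LAMB3 held with each library left out. Without frozen 0 h 6 of the 9 held, without frozen 1 h 5, and without the fresh libraries in their order 7, 7 and 8. Against the fresh library with DMSO alone, PKP2, KRT19, MALL, LY6K and LAMB3 passed.

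Other leading falls lay outside these pathways. PLEKHA6, a protein with a pleckstrin homology domain, had the smallest adjusted p among the falls, at 47.6, 48.7 and 50.3 CPM in fresh and 24.1 and 25.5 CPM in frozen cells (log2 fold change -0.98, SE 0.09, edgeR adjusted p = 8.66e-06). It lies on chromosome 1 from 204187981 to 204329057 in hg19. ALDH1A3, which makes retinoic acid, was at 89.0, 95.9 and 83.9 CPM and 52.3 and 49.3 CPM, and SPOCD1 at 115, 109.7 and 130.5 CPM and 68.0 and 71.1 CPM (edgeR adjusted p = 2.34e-05 and 6.22e-05). SAMD11 was at 12.9, 11.5 and 12.4 CPM and 4.81 and 6.21 CPM, and CRIP1, a small LIM protein, at 8.81, 11.1 and 11.01 CPM and 5.09 and 5.73 CPM (edgeR adjusted p = 0.000733 and 0.00106). These 5 genes passed with each of the 5 libraries left out in turn. Among the falls that did not do so, ACE, angiotensin-converting enzyme, was at 13.6, 11.4 and 12.1 CPM and 6.51 and 7.04 CPM, NMNAT2, an enzyme of NAD synthesis, at 10.6, 14.5 and 10.96 CPM and 6.90 and 5.81 CPM, and BEX1 at 29.7, 40.9 and 42.6 CPM and 22.7 and 19.7 CPM. The call was lost for ACE without frozen 0 h, NMNAT2 without frozen 1 h, and for BEX1 without frozen 1 h. Adjusted p by edgeR came to 0.0027 for ACE, 0.00261 for NMNAT2 and 0.00379 for BEX1.

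Genes of membrane repair, annexins and caveolae gave 4 calls of 34, and 3 of them fell. Annexins and small S100 proteins gather at torn membrane when calcium enters, and caveolae are membrane pits that flatten under tension. S100A6, calcyclin, was at 333, 330.3 and 367 CPM in fresh and 232 and 224 CPM in frozen cells, below every fresh value (edgeR adjusted p = 0.000428). CAV1, the main caveolar protein, was at 796, 890.2 and 876 CPM and 689 and 688 CPM, the smallest fold among the falls at 1.24-fold (edgeR adjusted p = 0.0486). ANXA10 was at 6.26, 7.50 and 9.56 CPM and 3.51 and 3.58 CPM, and ANXA3, which rose, at 40.8, 40.1 and 41.4 CPM and 57.8 and 54.4 CPM (edgeR adjusted p = 0.0119 and 0.00702). S100A10, the partner of annexin A2, had means of 219 CPM and 161 CPM and did not pass (edgeR adjusted p = 0.066). Of 34 members 3 fell and 1 rose, 19 lay below all fresh libraries and 4 above, and the median log2 fold change was -0.12. Of all genes tested, 15.4% lay below and 16.0% above. S100A6 held with each library left out, and none of the other three did with either frozen library left out. CAV1 also did not hold without fresh 1 h DMSO or fresh 1 h medium.

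Genes of the NRF2 response, which detoxify oxidants and supply reducing power, gave 2 falls among 37 tested. NQO1, a quinone reductase, was at 251, 262 and 275 CPM in fresh and 200.4 and 193 CPM in frozen cells, and TKT, transketolase of the pentose phosphate pathway, at 436, 484 and 526 CPM and 341 and 379.7 CPM (edgeR adjusted p = 0.0288 and 0.0163). Frozen libraries lay below all fresh ones for 20 of the 37 and above them for 0, and the median log2 fold change was -0.19. The shares over all genes tested were 15.4% below and 16.0% above. By edgeR 0 members were higher, also at an unadjusted p under 0.05 and by DESeq2. Neither fall held with either frozen library left out. NQO1 also did not hold without fresh 1 h DMSO or fresh 1 h medium.

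The 25 markers of mesenchymal stromal cells gave 2 falls, both of surface proteins. ENG, endoglin, a co-receptor for TGF-beta, was at 327, 335 and 350.1 CPM in fresh and 248 and 284 CPM in frozen cells, and ANPEP, aminopeptidase N, at 199.5, 204 and 214 CPM and 149.9 and 153 CPM (edgeR adjusted p = 0.0397 and 0.0059). By edgeR 0 were higher. At an unadjusted p under 0.05 the list had 2 higher and 8 lower, and by DESeq2 2 and 3. Frozen libraries lay below all fresh ones for 13 of the 25 and above them for 4, and the median log2 fold change was -0.13. Over all genes tested these shares were 15.4% and 16.0%, so the count above was near that of all genes. Neither call held with either frozen library left out. ENG also did not hold without fresh 0 h, fresh 1 h DMSO or fresh 1 h medium. The summed level of the list was 46724 to 50030 CPM in fresh cells and 48769 CPM at 0 h and 56863 CPM at 1 h in frozen cells, a sum set by a few abundant genes.

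Markers of other cell types were scarce, and single members of those lists passed. PODXL, podocalyxin, was at 9.71, 10.7 and 10.1 CPM in fresh and 16.1 and 15.4 CPM in frozen cells, while the 17 pluripotent markers summed to 39.7 to 41.1 CPM in fresh and 44.8 and 43.7 CPM in frozen cells. LIN28B, GDF3, LEFTY2 and TERT had no count. ERG, a factor of endothelial cells, was at 6.67, 4.87 and 4.41 CPM and 9.39 and 10.7 CPM, while the 13 endothelial markers summed to 54.3 to 62.8 CPM and then 75.4 and 72.6 CPM, and CDH5, VE-cadherin, did not exceed 0.394 CPM. CD68, a lysosomal protein of macrophages and of many other cells, was at 22.9, 22.4 and 21.6 CPM and 14.8 and 15.1 CPM, and the 14 blood cell markers summed to 26.7 to 28.4 CPM and then 19.0 and 20.3 CPM. SOX10, the defining factor of Schwann cells, did not exceed 0.224 CPM. In the edgeR test the adjusted p was 0.0025 for PODXL, 0.00541 for ERG and 0.0028 for CD68. The call was lost for PODXL without frozen 0 h, ERG without frozen 1 h, and for CD68 without frozen 1 h or frozen 0 h. The part of such cells in the other results was not tested.

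Growth factor binding proteins were among the most abundant genes that differed. IGFBP5, which binds insulin-like growth factors and matrix, was at 944, 951 and 888 CPM in fresh and 1562 and 1767 CPM in frozen cells (log2 fold change 0.84, SE 0.08, edgeR adjusted p = 8.66e-06). IGFBP7 was at 749.7, 709.6 and 733 CPM and 862 and 1001 CPM, and IGFBP6, which was lower, at 131, 115 and 138 CPM and 83.8 and 104 CPM (edgeR adjusted p = 0.0486 and 0.0288). APLN, apelin, a peptide of vessels also counted among hypoxia genes, was at 2.82, 2.64 and 2.96 CPM and 7.22 and 6.16 CPM (edgeR adjusted p = 6.22e-05). IGFBP5 and APLN held with each of the 5 libraries left out in turn. The call was lost for IGFBP6 without fresh 0 h, fresh 1 h medium or frozen 0 h. The call of IGFBP7 was lost with any one of the 5 left out.

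Lipid synthesis genes gave 4 rises among 32. SCD, the desaturase that makes oleate, was at 285, 330.5 and 302 CPM in fresh and 445 and 444 CPM in frozen cells and held with each library left out in turn (edgeR adjusted p = 0.00106). FADS2, a desaturase of polyunsaturated fatty acids, was at 176, 183 and 206 CPM and 238 and 269 CPM, STARD4, a cholesterol carrier, at 34.4, 31.9 and 26.3 CPM and 43.9 and 38.9 CPM, and TM7SF2, a sterol reductase, at 4.43, 4.78 and 4.61 CPM and 6.70 and 7.13 CPM. Their edgeR adjusted p was 0.0161, 0.0309 and 0.0309, and none of them held with either frozen library left out. FADS2 also did not hold without fresh 0 h or fresh 1 h DMSO. STARD4 also did not hold without fresh 1 h DMSO or fresh 1 h medium. TM7SF2 also did not hold without fresh 0 h, fresh 1 h DMSO or fresh 1 h medium. The median log2 fold change of the list was 0.088, with 0 lower by edgeR, at an unadjusted p under 0.05 and by DESeq2.

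Transporters and channels went both ways. SLC6A6, the taurine transporter by which cells regulate volume, was at 552, 624 and 612 CPM in fresh and 378 and 403 CPM in frozen cells, the only call among 24 osmotic stress genes (edgeR adjusted p = 0.000642), and it held with each library left out in turn. SCN9A, a sodium channel, was at 29.5, 37.2 and 28.4 CPM and 50.7 and 50.8 CPM, and CACNA1C, a calcium channel, at 34.8, 31.9 and 32.6 CPM and 41.4 and 43.6 CPM. KCNN4, a calcium-activated potassium channel, was lower, at 3.98, 3.68 and 3.44 CPM and 2.05 and 2.05 CPM, and so was CLIC3, at 6.58, 6.69 and 9.36 CPM and 3.98 and 4.76 CPM. By edgeR the adjusted p was 0.00251 for SCN9A, 0.0424 for CACNA1C, 0.0263 for KCNN4 and 0.0236 for CLIC3, and none of the 4 held with either frozen library left out. CACNA1C also did not hold without fresh 1 h DMSO or fresh 1 h medium. KCNN4 also did not hold without fresh 0 h or fresh 1 h DMSO. CLIC3 also did not hold without fresh 1 h medium.

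Single calls came from several further lists. CRYAB, a small heat shock protein, was the only call of 29 chaperone genes, at 5.95, 8.55 and 9.80 CPM in fresh and 4.18 and 4.63 CPM in frozen cells. VLDLR, a lipoprotein receptor, was the only call of 27 amino acid response genes, at 3.04, 2.09 and 1.70 CPM and 4.69 and 4.94 CPM. CA12, a carbonic anhydrase, fell 1.30-fold, HLA-B, an antigen-presenting molecule, rose 1.38-fold, TRAF1, a signalling adaptor, fell 1.42-fold and ZNF423, a factor of fat precursors, fell 1.46-fold. CNN3, an acidic calponin, rose 1.35-fold. Values of the edgeR adjusted p were 0.0228 for CRYAB, 0.00458 for VLDLR, 0.0201 for CA12, 0.0287 for HLA-B, 0.0374 for TRAF1, 0.0206 for ZNF423 and 0.0114 for CNN3. None of these 7 held with either frozen library left out. CRYAB and ZNF423 also did not hold without fresh 1 h DMSO or fresh 1 h medium. HLA-B also did not hold without fresh 1 h DMSO. TRAF1 also did not hold without fresh 0 h or fresh 1 h DMSO. MIAT, a nuclear long RNA, was at 16.8, 12.7 and 15.1 CPM and 28.4 and 29.3 CPM (edgeR adjusted p = 5.16e-05) and held with each library left out in turn.

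Some further genes were large in fold or small in p without belonging to a list. MAMDC2, a secreted matrix-associated protein, was at 62.5, 68.7 and 63.3 CPM in fresh and 137 and 142 CPM in frozen cells, and B3GALT2, a galactosyltransferase, at 1.52, 1.91 and 1.65 CPM and 5.09 and 5.07 CPM. LRIG1, which restrains EGF receptors, was at 66.8, 57.4 and 58.0 CPM and 109 and 120.3 CPM, GALNTL2, a mucin-type glycosyltransferase, at 42.8, 37.8 and 35.3 CPM and 67.8 and 71.4 CPM, and CELF2, a splicing regulator, at 3.22, 4.14 and 3.10 CPM and 7.69 and 7.52 CPM. MME, neprilysin, a peptidase also known as CD10, was at 3.62, 4.96 and 3.98 CPM and 8.64 and 8.79 CPM. The edgeR adjusted p was 1.90e-05 for MAMDC2, 1.76e-05 for B3GALT2, 8.66e-06 for LRIG1, 3.40e-05 for GALNTL2, 0.000148 for CELF2 and 0.000509 for MME, and all 6 held with each of the 5 libraries left out in turn. The immune checkpoint ligands CD274 and PDCD1LG2, noticed after their values were seen, both rose. CD274 was at 11.5, 11.5 and 11.4 CPM and 20.2 and 16.6 CPM, and PDCD1LG2 at 10.5, 11.1 and 9.85 CPM and 15.4 and 13.6 CPM (edgeR adjusted p = 0.000998 and 0.0263). Their fresh values were nearly level, and the 0 h frozen library was the higher for both. The call was lost for CD274 without frozen 0 h, and for PDCD1LG2 without fresh 0 h, fresh 1 h medium, frozen 1 h or frozen 0 h.

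Abundant genes shifted by modest folds. FGG, a fibrinogen chain, was at 712, 829 and 861 CPM in fresh and 569.7 and 555 CPM in frozen cells, PYGB, glycogen phosphorylase, at 261, 259.7 and 298 CPM and 197 and 212 CPM, and HMGA1, a chromatin protein of dividing cells, at 298, 296 and 338 CPM and 233 and 245 CPM. All frozen values were below all fresh ones. PRSS23, a serine protease, was at 675, 714 and 708 CPM and 946 and 954 CPM, and PXDN, peroxidasin, which cross-links collagen IV, at 1122, 1119.7 and 1069.9 CPM and 1328 and 1513 CPM. Adjusted p by edgeR came to 0.00642 for FGG, 0.0153 for PYGB, 0.0263 for HMGA1, 0.0045 for PRSS23 and 0.0289 for PXDN. None of the 5 held with either frozen library left out. HMGA1 also did not hold without fresh 1 h medium. PXDN also did not hold without fresh 0 h, fresh 1 h DMSO or fresh 1 h medium.

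On 12 of the 43 lists no gene passed by edgeR. Immediate early genes, the first to be transcribed when a cell is stimulated, had the most negative median log2 fold change of these, -0.90 over 41 genes, with 1 higher and 7 lower at an unadjusted p under 0.05, and 0 and 4 by DESeq2. With fresh 1 h DMSO left out, 9 of the 41 were called lower by edgeR and 0 higher. With fresh 0 h or fresh 1 h medium left out, 0 of these genes were called. Their fresh levels differed widely, as EGR3 shows, a factor induced by growth signals, at 24.0, 5.87 and 49.1 CPM in fresh and 3.67 and 2.40 CPM in frozen cells (edgeR adjusted p = 0.277), a gene chosen after its values were seen. EGR2 and DUSP2, the members with the smallest p, were at 1.12, 0.500 and 1.99 CPM and 3.09, 1.73 and 6.60 CPM in fresh and 0.316 and 0.350 CPM and 0.907 and 1.05 CPM in frozen cells (edgeR adjusted p = 0.0646 and 0.148). In each of these 3 genes, fresh cells with DMSO were the lowest of the fresh libraries.

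Genes of stress and death gave little. As above, counts at an unadjusted p under 0.05 have no share of all genes beside them and only describe each list. Of 8 cold response genes, CIRBP and RBM3, RNA-binding proteins induced by mild cold, had means of 236 CPM and 325 CPM in fresh and 202 CPM and 276 CPM in frozen cells (edgeR adjusted p = 0.221 and 0.217). The 8 cold response genes had 1 higher and 2 lower at an unadjusted p under 0.05, 0 and 0 by DESeq2, and a median log2 fold change of -0.19. The 23 unfolded protein response genes had 2 higher and 0 lower at an unadjusted p under 0.05, 0 and 0 by DESeq2, and a median log2 fold change of 0.064. The 19 p53 targets had 3 higher and 2 lower at an unadjusted p under 0.05, 0 and 0 by DESeq2, and a median log2 fold change of -0.0099. The 30 regulators of apoptosis had 3 higher and 3 lower at an unadjusted p under 0.05, 0 and 0 by DESeq2, and a median log2 fold change of 4.6e-05. Metallothioneins, which bind zinc and copper, had MT2A closest to the threshold, at 119, 123 and 157 CPM in fresh and 95.3 and 96.6 CPM in frozen cells (edgeR adjusted p = 0.0531). The 7 metallothioneins had 0 higher and 2 lower at an unadjusted p under 0.05, 0 and 1 by DESeq2, and a median log2 fold change of -0.35.

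Genes of S phase and mitosis, led by BIRC5, survivin, at 46.5, 55.9 and 62.4 CPM in fresh and 44.4 and 41.4 CPM in frozen cells (edgeR adjusted p = 0.126), also gave no call. The 41 cell cycle genes had 0 higher and 7 lower at an unadjusted p under 0.05, 0 and 0 by DESeq2, and a median log2 fold change of -0.063. The 31 proteasome subunit genes had 0 higher and 3 lower at an unadjusted p under 0.05, 0 and 0 by DESeq2, and a median log2 fold change of -0.13. The 20 Notch pathway genes had 2 higher and 0 lower at an unadjusted p under 0.05, 0 and 0 by DESeq2, and a median log2 fold change of 0.088. The 14 cartilage genes had 1 higher and 0 lower at an unadjusted p under 0.05, 1 and 0 by DESeq2, and a median log2 fold change of 0.10. The 7 HOX genes had 1 higher and 0 lower at an unadjusted p under 0.05, 0 and 0 by DESeq2, and a median log2 fold change of 0.13. The 17 circadian clock genes had 0 higher and 0 lower at an unadjusted p under 0.05, 0 and 0 by DESeq2, and a median log2 fold change of -0.078. In a simulation of this comparison on 14477 genes, 99% of genes changed 2-fold and 64% of genes changed 1.5-fold were recovered. The changed genes were all well counted, and every gene had the same spread, with no effect of hold time or DMSO. A 1.5-fold change in a member could therefore be missed. For scarce members, or those that vary among fresh libraries, the simulation gives no rate.

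Genes that rose were long. Their median genomic span was 65.0 kb, against 24.6 kb for genes that fell and 25.0 kb for all genes tested. With all genes ordered by span and divided into 5 groups of equal size, the share called higher went from 0.578% in the shortest to 2.70% in the longest, while the share called lower was between 0.514% and 0.738%. Among the genes that rose, BMP2 spans 12.2 kb, LRRN1 48.3 kb, CADM1 331 kb and NTRK3 380.0 kb. The median log2 ratio of all genes also moved with span in 2 pairs of single libraries, from -0.10 in the shortest to 0.06 in the longest group for frozen 0 h over fresh 0 h, and from -0.10 to 0.13 for frozen 1 h over fresh 1 h in medium. For frozen 1 h over fresh 1 h with DMSO it was flat, at 0.01 and 0.00. The genes that rose were also more highly counted than all genes, with a median of 33.0 against 17.2 CPM, and the part of span and level in the calls was not tested.

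**Figure D5:**
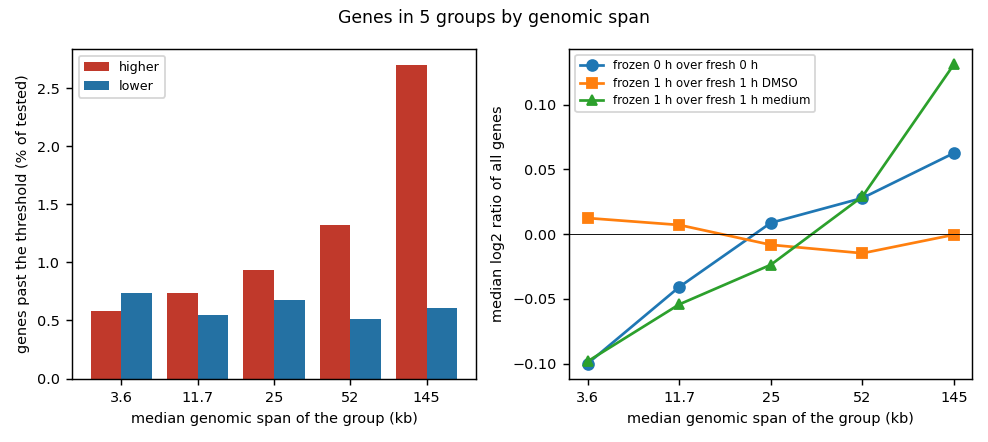
Genes tested, in 5 groups of equal size by genomic span, with the median span of each group in kb on the x axis. Left, the share called higher (red) or lower (blue) in DMSO-frozen cells in percent, which is highest, 2.70%, for higher calls in the longest group. Right, the median log2 ratio of all genes of a group in 3 pairs of single libraries, where the pair of 1 h libraries with DMSO stays flat.

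Summed measures of RNA composition were compared by an exact permutation test over the 10 splits of 5 libraries, which cannot go below p = 0.1. MALAT1 and NEAT1, long RNAs kept in the nucleus, took 0.509% ± 0.0513 (SD, n = 3) of counts in fresh and 0.422% ± 0.0414 (SD, n = 2) in frozen cells (two-sided exact permutation p = 0.2). Genes of ribosomal proteins, 81 in number, took 3.56% ± 0.252 (SD, n = 3) and 3.28% ± 0.0700 (SD, n = 2), with a two-sided exact permutation p of 0.3. As a share of the library total that the authors' RPKM values imply, the sum of counts was 68.5% ± 2.16 (SD, n = 3) in fresh and 72.6% ± 0.646 (SD, n = 2) in frozen libraries (two-sided exact permutation p = 0.2). In each of the measures named here the sides did not overlap.

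A few genes are set beside their levels in cells frozen in osmolyte solutions, which share no library with the DMSO-frozen group. These were picked after their values were seen, and were tested by edgeR for osmolyte-frozen against DMSO-frozen cells, where 13.6% of all genes were higher and 16.5% lower in osmolyte-frozen cells. SFRP1 averaged 271 CPM in fresh, 403 CPM in DMSO-frozen and 284 ± 15.02 CPM (SD, n = 3) in osmolyte-frozen cells (edgeR adjusted p = 0.000182 for the latter pair). In the same order, SCN9A averaged 31.7, 50.8 and 35.9 CPM and COL14A1 2.90, 6.53 and 4.19 CPM, both lower in osmolyte-frozen than in DMSO-frozen cells, as SFRP1 was (edgeR adjusted p = 0.00289 and 0.0335). CRYAB averaged 8.10, 4.41 and 8.09 CPM, KRT19 17.7, 9.14 and 11.9 CPM, and TNFRSF11B 31.4, 14.8 and 19.5 CPM, each higher in osmolyte-frozen than in DMSO-frozen cells (edgeR adjusted p = 0.00273, 0.0194 and 0.0241). KRT19 and TNFRSF11B were still lower in osmolyte-frozen than in fresh cells (edgeR adjusted p = 0.000195 and 9.67e-05), so their falls were shared and differed in size. SFRP1, SCN9A, COL14A1 and CRYAB did not pass between osmolyte-frozen and fresh cells. All genes given so far here lay nearer the fresh level in osmolyte-frozen than in DMSO-frozen cells. Others lay further from it. In the same order, ELN averaged 1.07, 3.52 and 38.6 CPM, DKK2 4.42, 18.3 and 50.6 CPM, and PLEKHA6 48.9, 24.8 and 6.27 CPM. These too were picked after their values were seen, and how many calls went each way was not counted. The tests of DMSO-frozen cells against osmolyte-frozen and against fresh cells share the DMSO-frozen libraries. Solution and cooling rate differed together between these groups, and so did the time for which cells were held, 1 h or 2 h against 0 h or 1 h. Their parts cannot be told apart.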

How the data were processed

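RNA was measured in 8 libraries, per the labels. Tools listed in the submitters' processing notes, with no roles, are HTSeq, CASAVA 1.9 and TopHat (written as version 12.0.6), and the build is hg19. The strand setting, the annotation and the treatment of reads shared between copies were not given in the sources used here. Per the file headers, the deposited table holds for every gene a raw count and an RPKM value in each library. Raw counts were used as the authors deposited them, and all are even, with 0 odd values. The authors' deposited RPKM values served only to recover the library total behind them. Of 23398 entries, 41 identifiers repeated with identical counts were kept once and 8 with differing counts were kept apart, leaving 23354 genes, with 0 on the mitochondrial chromosome.

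Groups came from the sample titles. The filter was filterByExpr on state, fresh against frozen, and 15564 genes remained, tested with edgeR 4.0.16 in R 4.3.3: TMM scaling, robust glmQLFit over 3 groups and all 8 libraries with 5 residual degrees of freedom, glmQLFTest, and Benjamini-Hochberg adjustment over all genes at 0.05. The biological coefficient of variation was 0.0971. The SE was taken as the size of the log2 fold change over the root of the F statistic. Log2 ratios of single libraries used a prior count of 2 and have no test. The steps were tested on simulated data. Alternatives were DESeq2 1.42.0, other scalings, no filter, fewer libraries, a term for time, part of the fresh libraries and each library left out.

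Members and lists were chosen with earlier results of these data known. Named by rule were, among genes past the threshold whose mean on the higher side was 5 CPM or more, the 15 largest rises and falls, the 10 of smallest p and the 10 most counted in each direction, and every call on a list. For a list with no call, its 2 members of smallest p could be given. Some genes that meet this rule are not reported here. Other genes, including those given as not passing, were chosen after their values were seen. Promoter windows were matched to RefSeq (GRCh38.p14) by symbol, which is another build than that of the counts. An interval or a limit for 0 counts (3 counts) covers counting error only, since without molecular identifiers reads are not independent molecules. The limit takes single counts as the unit, whereas the intervals take pairs.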

Additional observations from a re-analysis of the deposited data

How the results depend on the processing

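No call of the 291 changed direction in any alternative that gave it a value. This was largely fixed in advance, as both frozen libraries lay on one side of all fresh ones in every call. Genes higher and lower numbered 195 and 96. Without a filter on low counts 295 were higher, where more genes were tested, and by DESeq2 329 were higher and 167 lower. Against the fresh library with DMSO alone 59 were higher and 20 lower, where fewer samples were compared. With each library left out in turn, the counts ran from 56 to 213 higher and from 20 to 100 lower, lowest without a frozen library. The cause of the difference between DESeq2 and edgeR was not tested. Scaling by library totals gave 180 and 115, DESeq2 size factors 203 and 95, the 5 libraries alone 166 and 79, and a term for time 207 and 102. Of the 118 genes named by rule, 117 passed by DESeq2, 104 in the 5 libraries alone, 46 against fresh cells with DMSO, 58 without frozen 0 h and 44 without frozen 1 h. No paired analysis was possible by replicate number, because the labels give none, and the match in hold time between fresh and frozen libraries entered only through the term for time. With 1 library a condition, 1.5-fold changes could be missed, and depth limits genes of a few counts such as GDF7 and KRT14.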
